A study of Mus musculus with 8 samples.

Results

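The synaptic vesicle and release machinery was followed through 40 listed genes in dorsal root ganglia of mouse embryos. The genes were taken from a list and matched to the platform's gene symbols. Of the 40, 37 had at least 1 probe, 54 probes of the 25697 on the array, and 28 had a probe above the median brightness of the array and entered the test, out of 8935 named genes tested. Sv2c, Synj1 and Unc13a had no probe of that name in the table used and were not analysed here. Total RNA was measured on Illumina bead arrays in 4 Erk1/2CKO(Wnt1) samples, the mutant, and in 4 wild-type samples, all from ganglia at stage E12.5. The mutant's name gives a conditional loss of the kinases Erk1/2 tied to Wnt1, which acts in the neural crest. Sensory neurons and glia of the ganglion come from that lineage, while vessel cells and macrophages are not of that origin. Whether both kinases were lost only in that lineage was not checked here. The dissected ganglia came from 3 litters, and the labels do not tie a sample to a litter or give the number of embryos behind it, so p-values measure the spread between these samples. The genes named in the genotype were not analysed here, and the labels could not be checked on them.

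Neurons store transmitter in small vesicles that dock at the membrane, fuse when calcium enters, and are taken back. Fusion is driven by SNARE proteins, timed by calcium sensors of the synaptotagmin and Doc2 families and by complexins that bind the assembled SNAREs, while Rab3 and active zone scaffolds hold vesicles at the release site. At this stage sensory neurons are extending axons, and part of the same machinery serves membrane addition and the release of dense-core vesicles. Isl1, a transcription factor of sensory neurons, had a log2 intensity of 14.37 to 14.52 on the mutant arrays and 14.15 to 14.62 on the wild-type arrays. It was thus bright on all 8, but 1 marker does not show that the arrays held like tissue. For 17 of the 20 neuron markers tested, wild-type replicates 3 and 4 were both below replicates 1 and 2, against 30.4% of all genes tested. They were both above for 0 of the 20, against 30.0% of all genes. Avil, another neuron marker, had 10.91, 10.73, 8.56 and 9.38 on the wild-type arrays and varied more than Isl1.

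Promoter sequence is shown for Cplx2, the called member with an entry, and for Syn1 and Syn2, synapsin genes described together below. Each run holds the 250 bases before the annotated start in the GRCm38.p6 build (RefSeq), for Cplx2 at chr13:54302306-54302555 on the plus strand, for Syn1 at chrX:20920919-20921168 on the minus strand and for Syn2 at chr6:115134652-115134901 on the plus strand. Capitals mark matches, on either strand, to a cyclic AMP response element (TGACGTCA), an EGR site (GCGNGGGCG), the left part of the RE1 element bound by the neuronal gene repressor REST (TTCAGCACC) or an ETS site (CCGGAAG).
Cplx2: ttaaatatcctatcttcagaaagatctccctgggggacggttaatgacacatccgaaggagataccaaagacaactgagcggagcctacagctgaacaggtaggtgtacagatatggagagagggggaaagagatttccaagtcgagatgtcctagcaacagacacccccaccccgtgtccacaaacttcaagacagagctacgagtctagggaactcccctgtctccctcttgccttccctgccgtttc
Syn1: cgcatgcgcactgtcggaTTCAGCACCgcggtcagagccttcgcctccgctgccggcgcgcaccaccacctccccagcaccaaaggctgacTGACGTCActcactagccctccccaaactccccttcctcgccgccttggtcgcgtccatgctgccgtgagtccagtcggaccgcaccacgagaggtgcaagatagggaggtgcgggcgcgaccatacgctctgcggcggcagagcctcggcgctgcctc
Syn2: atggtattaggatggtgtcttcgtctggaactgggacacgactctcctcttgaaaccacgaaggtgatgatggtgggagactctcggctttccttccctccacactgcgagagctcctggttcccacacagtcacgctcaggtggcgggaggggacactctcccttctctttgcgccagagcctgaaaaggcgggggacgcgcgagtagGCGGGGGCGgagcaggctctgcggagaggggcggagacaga
The search covered 44 windows of 300 bases, 250 before and 50 after the start, from 32 of the listed genes, and no match shown overlaps another. Syn1 holds the response element and the RE1 part, and Syn2 holds an EGR match. The response element was found in 1 of the 44 windows, against 1.79% of all 32851 windows, and the RE1 part in 2 (Syn1 and Unc13a), against 0.371%. The EGR match was found in 5, of Cplx1, Nsf, Syn2, Synj1 and Unc13a, against 5.55%, and the ETS match in 1, of Syt11, against 8.86%. Cplx2 holds none of the 4, which says only that these letters are not in this window.

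The arrays differed within the wild-type group before any comparison of genotypes. The level of the release machinery on an array, taken as the mean over the 28 tested members of the log2 intensity minus each gene's own mean over the 8 arrays, was 0.094, 0.0057, 0.063 and 0.20 on the mutant arrays, against 0.14, 0.15, -0.37 and -0.29 on wild-type replicates 1 to 4. The mutant arrays lay together and close to wild-type replicates 1 and 2, and wild-type replicates 3 and 4 lay below all of them. The group means were 0.091 ± 0.082 in the mutant and -0.091 ± 0.28 in the wild-type (SD, n = 4 each). Replicates 3 and 4 were both below replicates 1 and 2 for 23 of the 28 members, a pattern that 30.4% of all genes tested showed, and both above them for 0 of the 28, against 30.0% of all genes.

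Other gene groups separated the same wild-type arrays. The level of 20 neuron markers, none of them in the list of 40, was 0.066, -0.0072, -0.032 and 0.35 on the mutant arrays, against 0.16, 0.12, -0.39 and -0.26 on the wild-type arrays. Cycling cell genes (12 tested) stood at -0.36 to -0.11 on the mutant arrays, against -0.22 and -0.20 for the first pair of wild-type arrays and 0.76 and 0.59 for the pair 3 and 4. Erythroid genes (8 tested) stood at -0.24 to -0.06, against -0.08 and -0.34 and then 0.73 and 0.36. The release genes ran with the neuron markers and opposite to the cycling cell and erythroid genes. Th, which makes catecholamines and was the 1 gene above the filter of 9 listed for spinal cord and autonomic ganglia, had log2 intensities of 10.02, 9.66, 10.44 and 9.70 on the mutant arrays, against 9.63, 9.77, 7.24 and 7.46 on the wild-type arrays. The 6 tested skeletal muscle genes stood at -0.53, -0.68, 0.44 and 0.68, against 0.34, 0.20, -0.19 and -0.25, and each of the 6 was lower on wild-type replicates 3 and 4 than on 1 and 2. Th and the muscle genes were thus also low on that pair, and the muscle genes differed within the mutant group as well. In whole ganglia, fewer neurons and less of an RNA in each neuron cannot be told apart. Results for the members described on each array are therefore also given without wild-type replicates 3 and 4. Macrophage markers (9 of 13 listed were tested) stood at 0.33, 0.58, 1.01 and -0.57 on the mutant arrays, against -0.35 to -0.33 on the wild-type arrays. The 6 tested glial markers stood at -0.40 to 0.15, against 0.056 to 0.31, a mean over genes that moved in opposite directions. Egr2 (-1.50) and Art3 (-0.68) fell and the myelin gene Mbp (1.27) rose (limma adjusted p = 8.3e-05, 0.0328 and 0.0459). The other 3, Dhh, Fabp7 and Sox2, stood at -0.86, -0.52 and 0.027 with no call. The part of these cell types in the results was not tested.

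**Figure D1:**
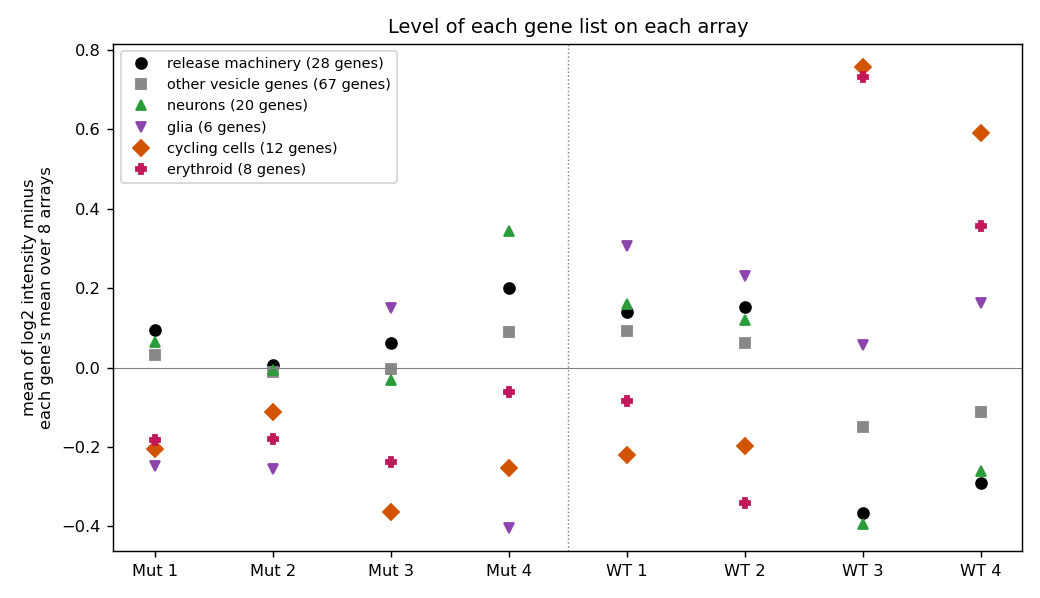
Level of the release machinery and of other gene lists on each of the 8 arrays (y axis: mean of log2 intensity minus each gene's mean over the arrays; mutant left of the dotted line, wild-type right). The release machinery and the neuron markers share their lowest points, wild-type replicates 3 and 4, where cycling cell and erythroid genes are at their highest.

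The comparison of mutant with wild-type ganglia asks which release genes differed in RNA level between the groups. Whether a release gene depends on Erk1/2 was not tested. Doc2b and Cplx2 rose in the mutant, 0 members fell and 26 did not pass (limma, Benjamini-Hochberg adjusted p under 0.05 over 9664 features). Of all genes tested 2.51% passed, 1.40% higher and 1.11% lower, and a count of 2 does not set the list apart from that background. By the unadjusted limma p, 8 of the 28 lay under 0.05, against 18.1% of all genes. The median log2 difference of the 28 was 0.16, against 0.0018 over all genes, with 20 of 28 above 0. Without wild-type replicates 3 and 4 the median was -0.039, against 0.0059 over all genes, and 9 of 28 were above 0. There 2 members were called, Doc2b higher and Syt4 lower (2.37% of all genes, 0.963% higher and 1.41% lower), and 7 had groups that did not overlap (28.8% of all genes). Without replicates 1 and 2 in their place the median was 0.35, 24 of 28 were above 0, 10 were called, all higher (13.6% of all genes, 6.83% higher), and 19 did not overlap (40.7% of all genes). The upward median of the list thus rested on wild-type replicates 3 and 4. With the neuron level as a covariate the same 2 members were called as over all arrays (3.88% of all genes). The neuron markers themselves differed about as much, with a level difference of 0.19 against 0.18 for the members. Of the 20 tested, 1 was called higher, Tlx3 (0.75, limma adjusted p = 0.0108), and 0 lower. For 5 of them every mutant array lay above every wild-type array, against 6.30% of all genes. The mutant and wild-type arrays did not overlap for 4 members, 3 higher (Doc2b, Cplx2 and Snap91) and 1 lower (Sypl), against 12.0% of all genes, 6.30% higher and 5.65% lower.

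**Figure D2:**
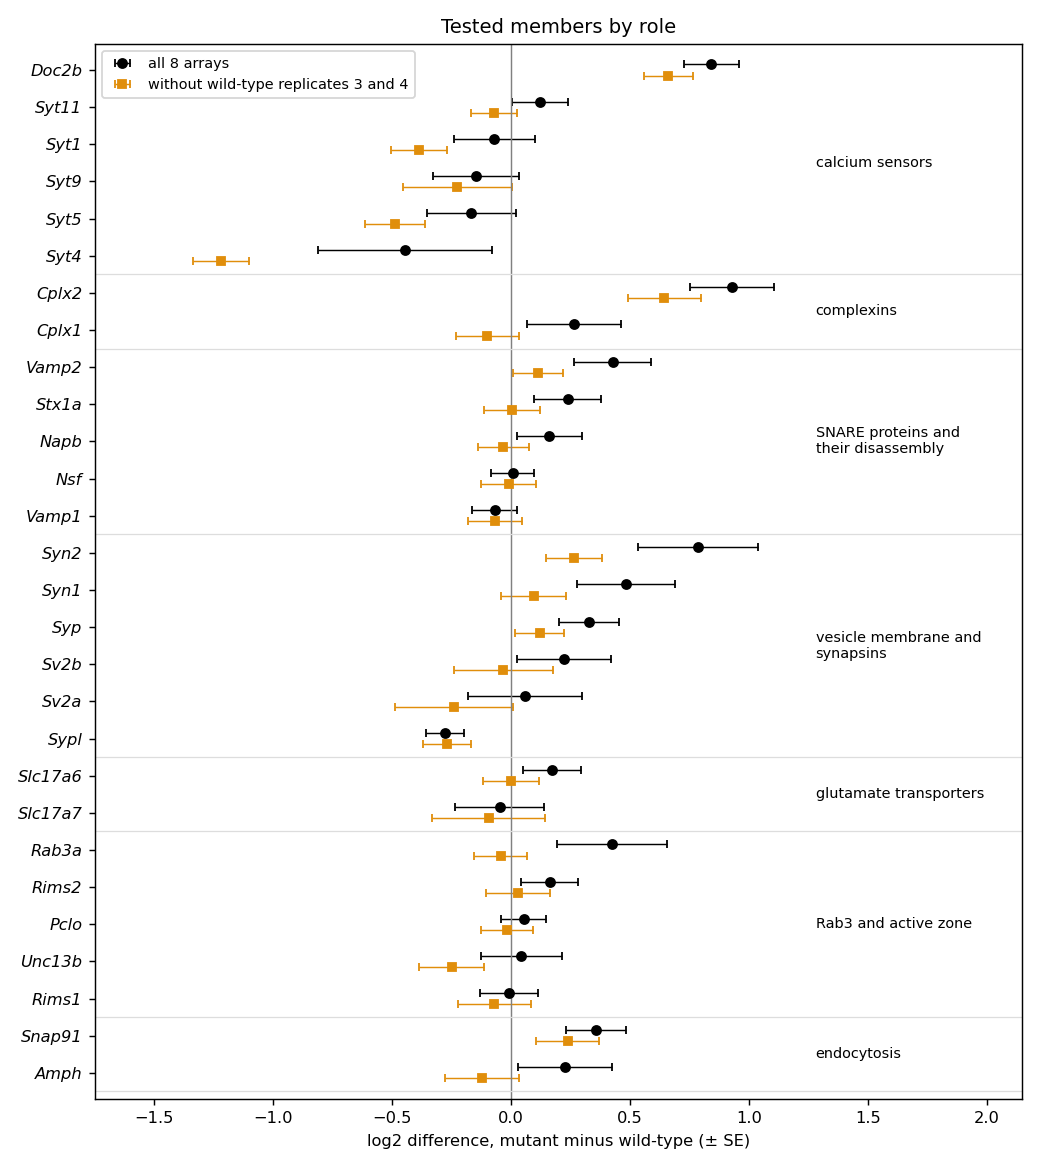
Log2 difference, mutant minus wild-type, of the 28 tested members grouped by role (x axis; bars are standard errors), over all 8 arrays (black) and without wild-type replicates 3 and 4 (orange). Doc2b and Cplx2 lie furthest to the right in both. They are among the 9 members above 0 without those replicates, where Syt4 moves to -1.22.

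Doc2b encodes a soluble protein with calcium-binding C2 domains that promotes spontaneous and asynchronous release. Its brighter probe had log2 intensities of 7.91, 7.88, 7.87 and 7.93 on the mutant arrays, against 7.39, 7.09, 6.85 and 6.90 on the wild-type arrays. The 4 mutant values were nearly equal, all above every wild-type value, and wild-type replicates 3 and 4 lay just above the filter level of 6.71. The difference was 0.84 ± 0.11 (SE, n = 4 per group; limma adjusted p = 0.00582), a 1.79-fold higher intensity. A second probe of Doc2b gave 7.93, 8.07, 7.62 and 7.94, against 7.16, 7.11, 6.75 and 6.60, a difference of 0.98 in the test of every probe by itself. Here too every mutant value was above every wild-type value, and wild-type replicate 4 lay under the filter level. Doc2b kept its call without wild-type replicates 3 and 4 (0.66 ± 0.10, limma adjusted p = 0.0154) and in each of the 21 alternatives that tested it, with adjusted p from 6.0e-04 to 0.0298. With the level of the neuron markers as a covariate the difference was 0.73 ± 0.092 (limma adjusted p = 0.00341).

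Cplx2 encodes a complexin, a small protein that binds the assembled SNARE bundle and both clamps and assists fusion. It had 9.95, 9.76, 9.75 and 9.34 on the mutant arrays, against 9.03, 9.08, 8.39 and 8.58 on the wild-type arrays. All mutant values were above all wild-type values, mutant replicate 4 by the least. The difference was 0.93 ± 0.18 (SE, n = 4 per group; limma adjusted p = 0.0286), a 1.90-fold higher intensity, from its single probe. The call was lost without wild-type replicates 3 and 4 (0.64 ± 0.15, limma adjusted p = 0.0695). It was lost as well without mutant replicate 1, 2 or 3 or wild-type replicate 3 or 4 alone (adjusted p = 0.0982, 0.0889, 0.0642, 0.0531 and 0.0859), and it held in 16 of 22 alternatives, in each of which the sign was positive. With the neuron level as a covariate the difference was 0.83 ± 0.18 (limma adjusted p = 0.0389). Its relative Cplx1 had 11.50, 11.26, 11.24 and 11.68 on the mutant arrays, against 11.54, 11.50, 10.68 and 10.90 on the wild-type arrays. Wild-type replicates 1 and 2 lay inside the mutant range of Cplx1 and replicates 3 and 4 below it, and the difference of 0.26 ± 0.20 did not pass (limma adjusted p = 0.512) and was -0.10 ± 0.13 without replicates 3 and 4.

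**Figure D3:**
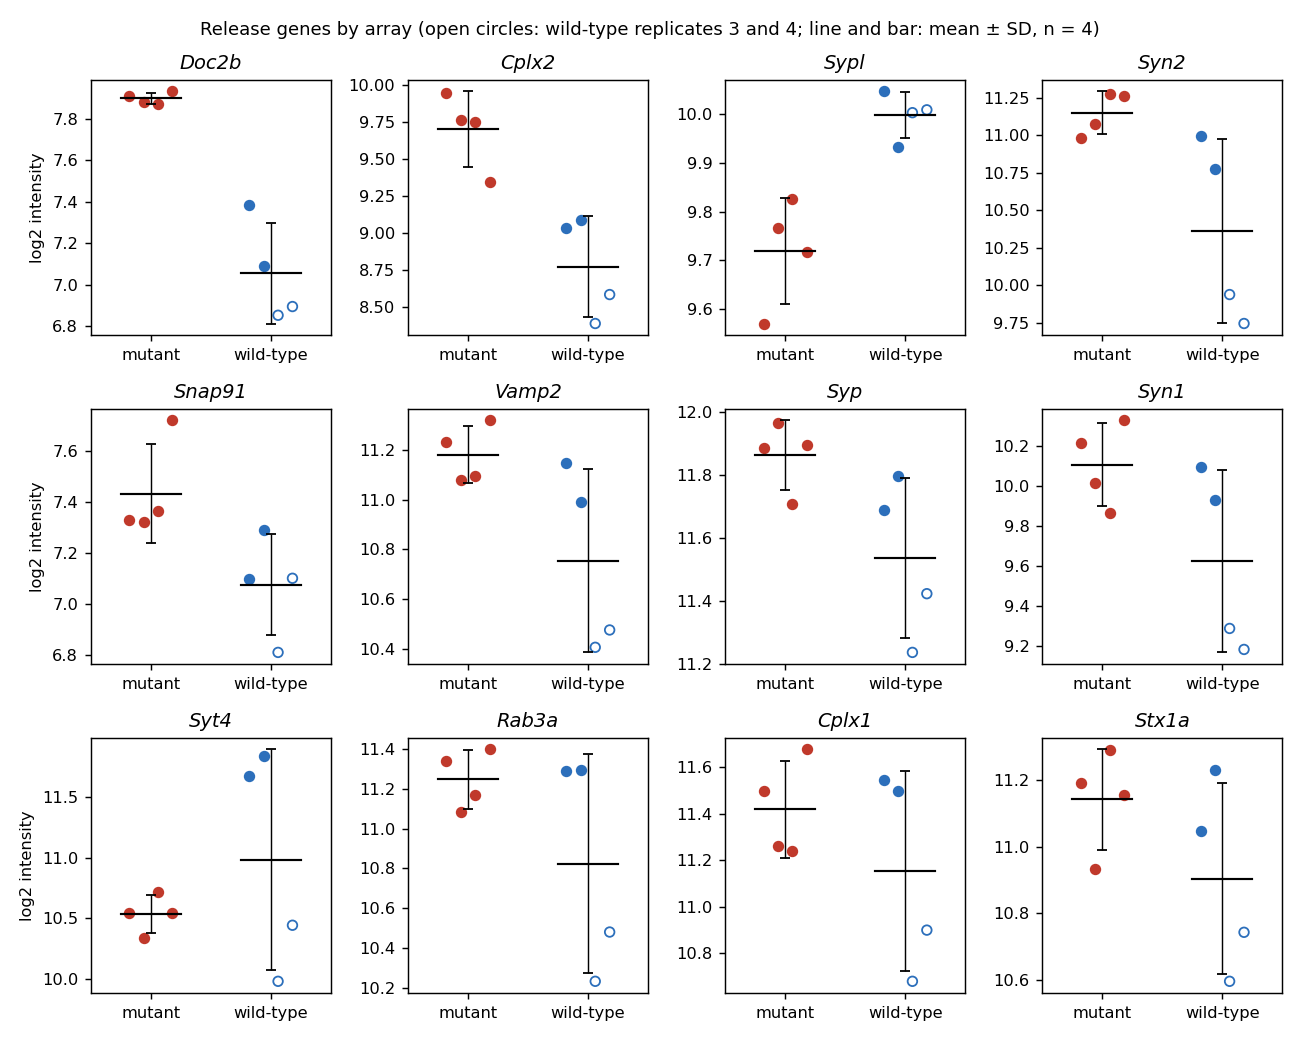
Log2 intensity of 12 members on each array (y axes differ; mutant left, wild-type right; open circles are wild-type replicates 3 and 4; line and bar are mean ± SD, n = 4). In Doc2b and Cplx2 all mutant points lie above all wild-type points, whereas in Syn2, Vamp2, Syn1, Rab3a and Cplx1 the open circles alone lie far below.

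The synaptotagmins, calcium sensors and their relatives on vesicles, did not move with Doc2b. Over all arrays 0 of the 5 tested synaptotagmins passed. Syt4 is a synaptotagmin of dense-core and Golgi-derived vesicles whose first C2 domain does not bind calcium in the usual way. It had 10.54, 10.34, 10.72 and 10.55 on the mutant arrays, against 11.67, 11.84, 9.98 and 10.44 on the wild-type arrays. All mutant values lay below wild-type replicates 1 and 2, replicate 3 lay below them all and replicate 4 among them. The mean of wild-type replicates 3 and 4 minus that of replicates 1 and 2 was -1.54 on the log2 scale, the widest such gap of the 28. Over all arrays the difference was -0.45 ± 0.37 (SE, n = 4 per group; limma adjusted p = 0.555). Without wild-type replicates 3 and 4 Syt4 fell by 1.22 (SE 0.12, limma adjusted p = 0.0025), and without replicates 1 and 2 it stood at 0.32 with no call (adjusted p = 0.187). With the neuron level as a covariate it was -0.88 ± 0.24 (limma adjusted p = 0.0701). Over its 22 alternatives the adjusted p ran from 0.0025 to 0.826.

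Syt5, a synaptotagmin of dense-core vesicles, had 7.42, 7.29, 7.02 and 7.40 on the mutant arrays, against 7.70, 7.84, 6.91 and 7.35 on the wild-type arrays. All mutant values lay below wild-type replicates 1 and 2 and overlapped replicates 3 and 4. The difference was -0.17 ± 0.19 (limma adjusted p = 0.689) over all arrays and -0.49 ± 0.13 (adjusted p = 0.0913) without wild-type replicates 3 and 4. Syt1, the fast sensor of synchronous release, stood at -0.070 ± 0.17 and at -0.39 ± 0.12 (adjusted p = 0.132) without those replicates. Syt9, related to Syt1, stood at -0.15 ± 0.18 and -0.23 ± 0.23. Syt11, which like Syt4 lacks usual calcium binding, had 13.84, 13.91, 13.79 and 13.73 on the mutant arrays, against 13.81, 13.97, 13.42 and 13.58 on the wild-type arrays. These groups overlapped, and the difference was 0.12 ± 0.12, with 0.072 and 0.11 at its other probes and -0.072 ± 0.096 without wild-type replicates 3 and 4. Against wild-type replicates 1 and 2, Doc2b was the only 1 of the 6 tested calcium sensors of the list with a positive difference. Syt4 was the only 1 called lower. That contrast rested on the pair left out, which was chosen because members were low on it. Without replicates 1 and 2 instead, Doc2b stood at 1.02, Syt4 and Syt11 at 0.32, Syt1 at 0.25, Syt5 at 0.16 and Syt9 at -0.070.

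Of the SNARE proteins and the factors that take them apart, 0 of 5 tested genes passed. Vamp2, the vesicle SNARE of neurons, had 11.23, 11.08, 11.09 and 11.32 on the mutant arrays, against 11.15, 10.99, 10.41 and 10.48 on the wild-type arrays. Wild-type replicates 3 and 4 were low and replicate 1 lay within the mutant range. The difference of 0.43 ± 0.16 (limma adjusted p = 0.204) shrank to 0.11 ± 0.10 without replicates 3 and 4. Stx1a, the membrane SNARE, stood at 0.24 ± 0.14 over all arrays and at 0.0033 ± 0.12 without them. Napb, a SNAP adaptor of neurons, stood at 0.16 ± 0.14 and Nsf, the ATPase that separates SNAREs, at 0.0071 ± 0.091, the smallest difference of the 28. Vamp1, a vesicle SNARE that is close kin of Vamp2, had 6.80, 6.99, 6.98 and 7.16 on the mutant arrays, against 6.98, 7.11, 6.94 and 7.15 on the wild-type arrays, at its brightest probe. The groups overlapped there, and its 4 probes above the filter differed in sign, at -0.068, 0.0037, -0.042 and 0.13. At the last of these the groups did not overlap, at 6.78 to 6.87 on the mutant and 6.57 to 6.73 on the wild-type arrays. That held for 7.64% of all named probes. The brightest probe stood at -0.067 ± 0.11 without wild-type replicates 3 and 4. The single probe of Snap25, the other membrane SNARE, had a mean log2 intensity of 6.13, under the filter level, and a difference of 0.13 ± 0.089.

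Among vesicle membrane proteins and synapsins 0 of 6 tested genes passed, with unlike patterns. Syn2, a synapsin that tethers vesicles to one another and to actin, had 10.98, 11.08, 11.28 and 11.26 on the mutant arrays, against 10.99, 10.78, 9.94 and 9.75 on the wild-type arrays. Wild-type replicate 1 lay inside the mutant range and replicates 3 and 4 far below. Its difference of 0.79 ± 0.25 did not pass (limma adjusted p = 0.142), and it was 0.27 ± 0.12 without replicates 3 and 4 (adjusted p = 0.279) and 1.31 without replicates 1 and 2, where it was called (adjusted p = 0.00107). Syn1, of the same family, had 10.22, 10.02, 9.87 and 10.33 on the mutant arrays, against 10.10, 9.93, 9.29 and 9.18 on the wild-type arrays. Wild-type replicates 1 and 2 lay inside the mutant range and replicates 3 and 4 below it. The difference was 0.48 ± 0.20 (limma adjusted p = 0.249) and 0.57 at its second probe, and 0.094 ± 0.14 was left without replicates 3 and 4. Both synapsins were thus low on that pair of wild-type arrays, as 23 of the 28 tested members were. Their printed promoters share none of the 4 motifs, and a link of motifs to levels was not tested.

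Syp, synaptophysin, the most abundant membrane protein of small vesicles, had 11.89, 11.97, 11.71 and 11.90 on the mutant arrays, against 11.69, 11.80, 11.24 and 11.42 on the wild-type arrays. The groups overlapped at mutant replicate 3, and the difference was 0.33 ± 0.13 (limma adjusted p = 0.207), or 0.12 ± 0.10 without wild-type replicates 3 and 4. Its relative Sypl, a synaptophysin-like protein that is not confined to neurons, ran the other way. It had 9.57, 9.77, 9.83 and 9.72 on the mutant arrays, against 10.05, 9.93, 10.00 and 10.01 on the wild-type arrays. All 4 mutant values lay below all wild-type values, and wild-type replicates 3 and 4 did not stand apart. The difference of -0.28 ± 0.079 did not pass (limma adjusted p = 0.103), was -0.31 at the second probe, also with no overlap, and was -0.27 ± 0.10 without replicates 3 and 4. Sv2a, a vesicle glycoprotein, had 9.31, 10.08, 10.15 and 10.24 on the mutant arrays, against 10.41, 9.96, 9.75 and 9.43 on the wild-type arrays. Mutant replicate 1 was the lowest of the 8. Its 2 probes stood at 0.058 and -0.17, with opposite signs, and the brighter one at -0.24 ± 0.25 without wild-type replicates 3 and 4. Its relative Sv2b stood at 0.22 ± 0.20.

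**Figure D4:**
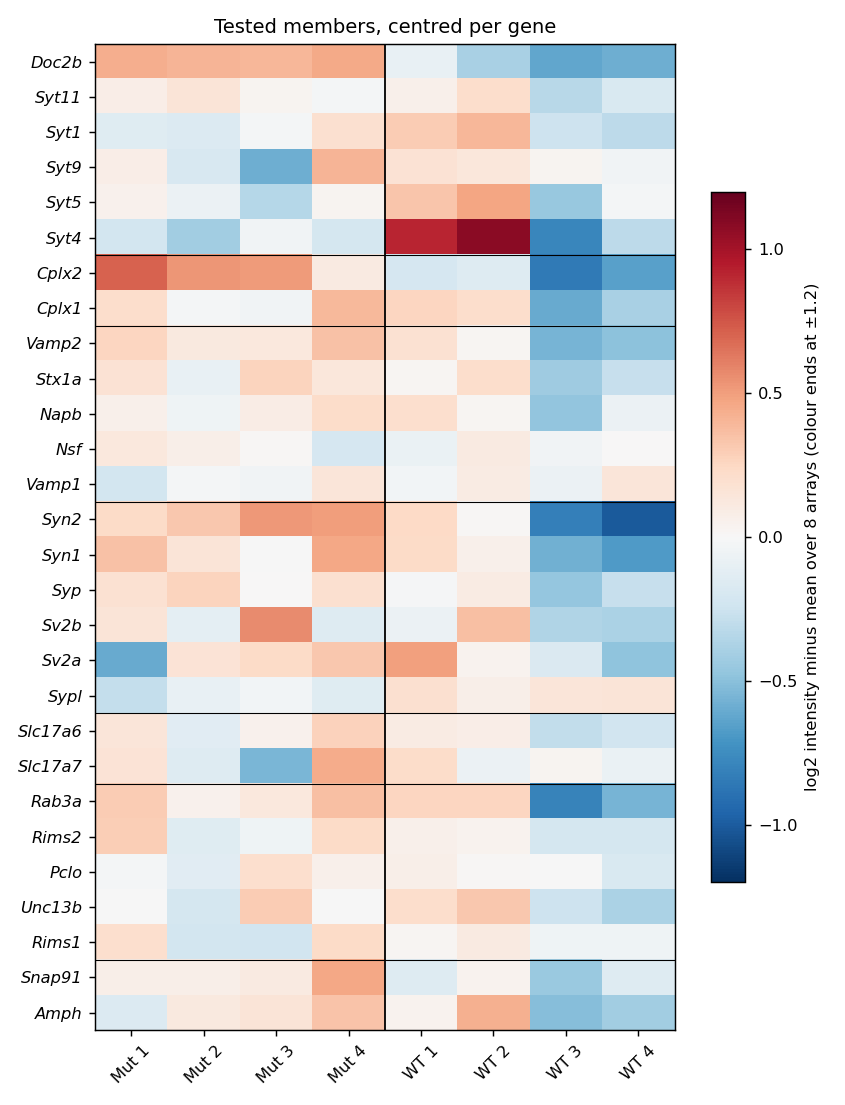
Log2 intensity of the 28 tested members on each array minus the gene's mean over the 8 arrays (columns: 4 mutant arrays, then 4 wild-type arrays; rows grouped by role, colour scale in log2 units). Blue runs down wild-type replicates 3 and 4 in most rows. Doc2b and Cplx2 lie above their mean on all mutant arrays, Cplx2 only slightly on mutant replicate 4. Sypl lies below its mean on all of them, by little on mutant replicate 3. Syt4 is darkest red on wild-type replicates 1 and 2.

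The glutamate transporter Slc17a6 (VGLUT2), which loads vesicles of sensory neurons, had 12.64, 12.37, 12.55 and 12.78 on the mutant arrays, against 12.59, 12.58, 12.20 and 12.27 on the wild-type arrays, a difference of 0.17 ± 0.12 (limma adjusted p = 0.487). The groups overlapped, and the value without wild-type replicates 3 and 4 was -0.00068 ± 0.12. Slc17a7 (VGLUT1), which serves a part of the sensory neurons and other glutamatergic neurons, lay near the filter level at a mean of 6.88 and stood at -0.048 ± 0.19.

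Of the Rab3 and active zone genes 0 of 5 tested passed. Rab3a, the vesicle GTPase that recruits effectors before docking, had 11.34, 11.09, 11.17 and 11.40 on the mutant arrays, against 11.29, 11.30, 10.23 and 10.48 on the wild-type arrays. Replicates 1 and 2 of the wild-type lay within the mutant range and the difference of 0.42 ± 0.23 (limma adjusted p = 0.361) became -0.044 ± 0.11 without replicates 3 and 4. Unc13b, a Munc13 priming factor, had 11.23, 11.02, 11.54 and 11.23 on the mutant arrays, against 11.45, 11.56, 10.98 and 10.86 on the wild-type arrays. The groups overlapped, at 0.042 ± 0.17 over all arrays and -0.25 ± 0.14 without replicates 3 and 4. Rims2, a scaffold that links Rab3 to calcium channels, stood at 0.16 ± 0.12 and its relative Rims1, near the filter level, at -0.011 ± 0.12. The scaffold gene Pclo had 7.07, 6.96, 7.29 and 7.15 on the mutant arrays, against 7.16, 7.10, 7.09 and 6.90 on the wild-type arrays, which overlapped, and its 2 probes above the filter stood at 0.052 and -0.069. The brighter one stood at -0.017 ± 0.11 without wild-type replicates 3 and 4. In retrieval, Snap91 (AP180), a clathrin assembly protein, had 7.33, 7.32, 7.36 and 7.72 on the mutant arrays, against 7.10, 7.29, 6.81 and 7.10 on the wild-type arrays. The groups were apart by a small step, the difference of 0.36 ± 0.13 did not pass (limma adjusted p = 0.170) and was 0.24 ± 0.13 without wild-type replicates 3 and 4 (adjusted p = 0.392), and the second probe, which overlapped, stood at 0.022. Amph, an adaptor that brings dynamin to the vesicle neck, stood at 0.23 ± 0.20 over all arrays and at -0.12 ± 0.16 without replicates 3 and 4.

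The 9 members under the filter were Bsn, Dnm1, Doc2a, Rab3b, Rab3c, Rph3a, Snap25, Syt2 and Syt7. Tested probe by probe with no filter, their differences ran from -0.084 (Syt7) to 0.20 (Rab3b), and 0 of their 12 probes passed. In the same test 3 of the 54 probes of the list passed, both of Doc2b and that of Cplx2, all higher, against 1.14% of the 23978 named probes (0.588% higher); the groups did not overlap at 7.64% of them. Of the 28 tested members 20, Cplx2 among them, rest on 1 probe above the filter, and 8 have several.

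The rest of the vesicle cycle gave the same picture of few calls. Of 67 tested genes of a longer list of SNAREs, synaptotagmins, scaffolds, clathrin adaptors and endocytic proteins, 1 rose and 0 fell, against the background of 2.51%, with a median difference of 0.045 and 41 of 67 above 0. Without wild-type replicates 3 and 4 the median of the 67 was -0.044, with 29 above 0, and without replicates 1 and 2 it was 0.12, so its sign too rested on that pair. Replicates 3 and 4 were both below 1 and 2 for 36 of the 67, against 30.4% of all genes, and both above them for 5, against 30.0%. The gene that rose was Ap2a2, the alpha subunit of the AP-2 clathrin adaptor, with 10.34, 10.41, 10.29 and 10.41 on the mutant arrays, against 9.92, 9.96, 10.03 and 10.04 on the wild-type arrays. Its arrays did not overlap, and wild-type replicates 3 and 4 were not low. The difference was 0.37 ± 0.072 (SE, n = 4 per group; limma adjusted p = 0.0290) and 0.42 ± 0.087 without replicates 3 and 4 (adjusted p = 0.0456). The call held in 13 of 22 alternatives, with adjusted p from 0.0203 to 0.120, and was lost without any single array but mutant replicate 3 (adjusted p = 0.0531 to 0.092).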

How the data were processed

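Total RNA of 8 samples, 4 mutant and 4 wild-type, was measured on 1-colour bead arrays. The authors deposited bead intensity per probe on a linear scale, with no value below 80.3 and the background treatment not stated, and a log2 table that is the log2 of the same values after quantile normalization (largest difference 5.0e-09). BeadStudio is the tool in the submitters' processing notes; its version and settings are not given in the sources used here. The files hold no detection p-values or control probes. Intensities were corrected with normexp (offset 50), put on the log2 scale, quantile normalized and tested with limma 3.58.1 in R 4.3.3 (lmFit, eBayes, two-sided, mutant minus wild-type). The offset pulls differences of dim probes towards 0.

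Probes with a mean above the median of all 25697 (log2 6.71) were kept, 12848 in number. The brightest probe stood for a gene, giving 9664 features, 8935 of them named, with Benjamini-Hochberg adjustment over these. The median raw intensity was 138 to 147 on the mutant arrays and 144 to 159 on the wild-type arrays, and the number of arrays limits the precision. Per the file headers all arrays lay on 1 slide, with genotypes in separate positions, so position and genotype cannot be told apart. The procedure was tested on simulated data with independent noise. Those data held no split among the wild-type arrays, so that test does not cover the split seen here. The members, gene lists and tests were chosen with earlier results of these data known. Values on each array are given for called members, those with an unadjusted p under 0.05, the 6 brightest, the 3 largest differences in each direction, and members whose probes disagree. The 12 members plotted by array were chosen after their values were seen. Alternatives were the authors' table, an offset of 16, cyclic loess, median scaling, other filters, the mean of probes, an intensity trend, array weights, a replicate block, neuron or erythroid level as a covariate, and leaving out arrays.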

Additional observations from a re-analysis of the deposited data

Results flagged for a closer look

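In Snap91, mutant replicate 4 stood far from the other mutant arrays, at 7.72 against 7.32 to 7.36, a gap of 0.893 of the range of the group. Its second probe was also highest there, at 7.53 against 7.05 to 7.07. The 28 tested members and the level of the list gave 58 groups of 4 arrays, of which this was the 1 so marked at a level of 0.05, a rate at which chance marks some groups.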

How the results depend on the processing

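The precision rests on 4 arrays per group, and no detection calls were used, so signal over background is known for no probe. Both higher calls held, and the 0 lower calls stayed 0, under the authors' table, an offset of 16, cyclic loess, median scaling, no filter, an intensity trend, array weights, the mean of probes, the replicate block and the neuron covariate. With the filter at the upper quartile, which removes Doc2b, 1 of 19 members tested was called (3.07% of all 4914 genes) and 2 had groups apart (13.6% of all genes). Leaving out 1 array at a time gave 1 to 2 members called higher, 0 called lower and 0 to 1 other vesicle genes called. Of all genes, 0.750% (without mutant replicate 1) to 2.24% (without mutant replicate 4) were called in these fits, against 2.51% over all arrays. Without wild-type replicates 3 and 4, 1 member was called higher and 1 lower, 7 had groups apart (28.8% of all genes did), and the level difference turned to -0.057. Without wild-type replicates 1 and 2, 10 members, 12 of their probes and 12 other vesicle genes were called (13.6% of all genes were called), 19 members had groups apart (40.7% of all genes did), and the level difference was 0.42. The 10 were Doc2b, Cplx2, Syn2, Vamp2, Syp, Syn1, Rab3a, Stx1a, Cplx1 and Amph. The replicate block left 0 other vesicle genes called (0.918% of all genes) and the neuron covariate 3 (3.88% of all genes). The erythroid covariate called 1 member lower (Syt4, -1.06), with 2.38% of all genes called. The replicate numbers do not pair the samples: deviations of same-numbered arrays correlated at -0.28 to -0.051, and the replicate block kept both calls of members (Doc2b 0.84, adjusted p = 0.0297; Cplx2 0.93, adjusted p = 0.0339), with 82 genes called in all against 224.

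Signs of members turned as follows, none of them with a call; the cause was not tested. Under median scaling Syt11 stood at -0.027, Unc13b at -0.065, Sv2a at -0.033 and Nsf at -0.10 (median of all genes -0.062). With the mean of probes Vamp1 stood at 0.0070, Pclo at -0.0081 and Sv2a at -0.054, and with array weights Sv2a at -0.036. With the neuron covariate Cplx1 stood at -0.0028, Amph at -0.00034, Unc13b at -0.10 and Sv2a at -0.13. With the erythroid covariate Amph stood at -0.048, Sv2b at -0.015, Syt11 at -0.045, Unc13b at -0.17, Sv2a at -0.091 and Nsf at -0.033. Without wild-type replicates 3 and 4 Rab3a stood at -0.044, Slc17a6 at -0.00068, Cplx1 at -0.10, Napb at -0.033, Amph at -0.12, Sv2b at -0.033, Syt11 at -0.072, Pclo at -0.017, Unc13b at -0.25, Sv2a at -0.24 and Nsf at -0.0094. Without replicates 1 and 2 Syt4 stood at 0.32, Syt5 at 0.16, Syt1 at 0.25 and Rims1 at 0.049. Leaving out 1 array at a time, the ranges that crossed 0 were -0.033 to 0.075 for Nsf, -0.0071 to 0.11 for Pclo, -0.088 to 0.064 for Rims1, -0.20 to 0.13 for Slc17a7, -0.094 to 0.27 for Sv2a, -0.19 to 0.052 for Syt1, -0.31 to 0.024 for Syt9 and -0.076 to 0.16 for Unc13b.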
